A study of Rattus norvegicus with 6 samples.

Results

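The genes described here encode the carriers of the inner mitochondrial membrane and the machinery that brings proteins into mitochondria, and 73 of the 14607 genes in the table were members. They were taken by symbol, as every row whose symbol begins with Slc25a, Timm, Tomm, Vdac, Samm50, Mcu or Micu, or is Mpc1 or Mpc2. RNA-Seq was carried out on 2 mural cell types of the cortex of male Sprague-Dawley rats of 4 to 5 weeks, with 3 samples of vascular smooth muscle cells (VSMCs) and 3 of mid-capillary pericytes (mcPCs). VSMCs had been sorted positively from arterioles, whereas mcPCs were what remained of the capillary filtrate after other cell types had been depleted, and each sample came from the pooled cortices of several untreated rats. Arterioles and filtrate were parts of the same digested cortices in 3 independent isolations, so the samples of both cell types are matched. The table gives 1 mean per gene and cell type beside the authors' own comparison, whose standard errors and p-values were not used, so the differences below are given without a spread between samples and without a test across them.

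Mitochondria are enclosed by 2 membranes. Small molecules cross the outer membrane through the voltage-dependent anion channels and the inner membrane through carriers of the SLC25 family, each of which exchanges particular substrates such as ADP for ATP, phosphate, citrate, aspartate or iron-related metabolites. Calcium enters the matrix through the uniporter Mcu under the control of gatekeeper subunits, and pyruvate enters through the Mpc1-Mpc2 complex. Nearly all mitochondrial proteins are made in the cytosol, pass the outer membrane through the TOM complex and are then sorted by TIM23 (matrix proteins with a presequence), TIM22 with its small TIM chaperones (carriers) or the SAM complex (outer membrane barrels). In contractile cells the ATP-exporting carriers are known for their abundance, while a few carriers that serve haem synthesis are known for their high levels in erythroid cells.

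On normalized counts the genes of protein import differed by less than 2-fold between the cell types. Some single carriers differed several-fold, Slc25a39 towards mcPCs and Slc25a25 towards VSMCs among them. Levels were compared as the log2 ratio of the authors' mean normalized counts, mcPC over VSMC, and a difference of at least 2-fold was counted. In bulk samples a lower share of cells of a type and less RNA per cell cannot be told apart. On this scale no gene named Timm, Tomm or Samm50 differed by 2-fold (0 of 23), and 20 of the 23 lay within 1.5-fold. Other scalings put some import genes beyond 2-fold towards VSMCs, such as Tomm70 at -1.39 in counts scaled to the same total. Of the 40 Slc25a genes, 9 exceeded 2-fold towards mcPCs (22.5%, against 22.0% of all genes), 4 exceeded it towards VSMCs (10%, against 13.9%), and 22 lay within 1.5-fold. The carriers' shares beyond 2-fold were thus near or below those of all genes. The share within 1.5-fold was thus 87% for import genes and 55.0% for carriers, beside 46.4% of all genes. Of the 10 channel genes, 3 (Mcu, Mcur1 and Mpc1) were at least 2-fold higher in VSMCs (30%, against 13.9% of all genes).

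Over all 73 members, 9 were at least 2-fold higher in mcPCs (12.3%), against 22.0% of all genes, and 7 were at least 2-fold higher in VSMCs (9.59%), against 13.9% of all genes. The members' shares lay below the background in both directions. Their median log2 ratio was -0.16, beside 0.01 over all genes, with a range from -2.93 (Slc25a25) to 4.45 (Slc25a39), and 41 of the 73 were below 0. The members nearest to the limit were Mpc1 (-1.05) inside and Tomm70 (-0.87) outside on the VSMC side, and Slc25a2 (1.05) inside and Slc25a1 (0.88) outside on the mcPC side. Each ratio carries a 95% counting interval (exact binomial on the reads of all samples), which covers counting error only and not the difference between samples. That interval lay below 0 for 37 members, above 0 for 23 and held 0 for 13. The same share over all genes was not taken, so these are not counts of members that differ between the cell types. The place of 0 also depends on the scaling, and from 35 to 67 members were below it over the scalings tried.

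**Figure D1:**
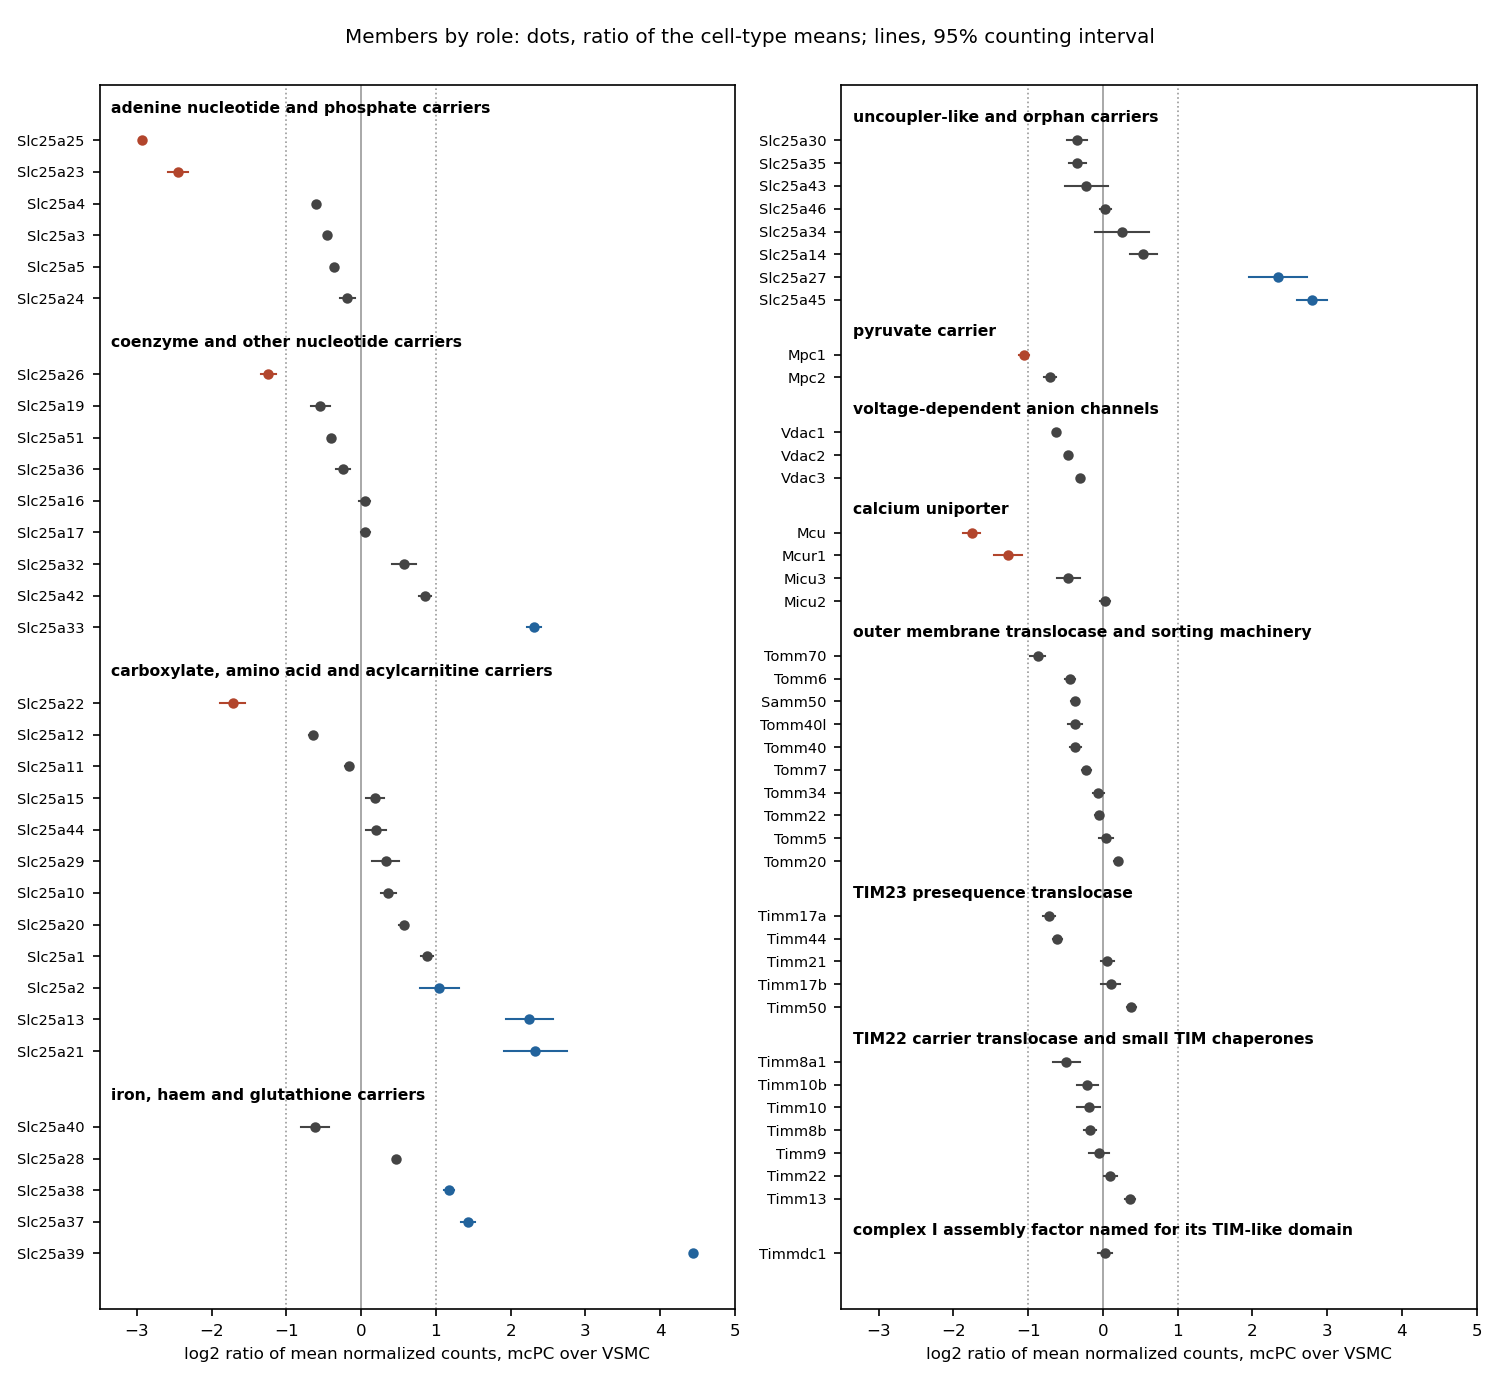
Log2 ratio of the mean normalized counts, mcPC over VSMC (x axis), of 72 of the 73 members grouped by role (y axis), with 95% counting intervals as lines and dotted lines at 2-fold. Blue marks the 9 members at least 2-fold higher in mcPCs, red the 7 at least 2-fold higher in VSMCs, and all members of the TOM, TIM23 and TIM22 groups lie between the dotted lines.

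Marker lists were read beside these ratios. All 11 smooth muscle genes of a marker list, Acta2 and Myh11 among them, were higher in VSMCs (summed TPM, an abundance scaled to transcript length and to a common total, 57567 in VSMCs and 299 in mcPCs), and 8 of 9 pericyte genes were higher in mcPCs. Blood genes stood out in mcPCs: of the 18 listed erythrocyte genes 17 differed by more than 2-fold towards mcPCs, and together with 3 further globin rows this list made up 66.9% of all TPM in mcPCs and 0.878% in VSMCs. In mcPCs 11 of 16 endothelial genes and all 6 microglial and macrophage genes with a row were also at least 2-fold higher (summed TPM 696 in VSMCs and 312 in mcPCs for the endothelial list, and 0.893 and 12.4 for the microglial list). The same held for 5 of 5 astrocyte, 5 of 6 oligodendrocyte, 5 of 5 neuron and 4 of 5 fibroblast genes with a row, whose lists summed to between 18.1 and 55.7 TPM in mcPCs. The part of these cell types in the members' ratios was not tested. The median over all genes of the log2 TPM ratio, mcPC over VSMC, was -1.79. TPM is therefore used below for levels and for ratios between genes of 1 cell type, and the normalized counts for differences between cell types.

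The proximal promoters of the members at both ends of the order are shown for reference, since these genes carry the differences described below. They are the 2 members with the lowest and the 2 with the highest ratio among those with at least 100 reads per sample in each cell type, and 61 of the 73 members had an entry in the RefSeq promoter table. The 250 bases before the annotated start are printed 5′ to 3′ from RefSeq on GRCr8, a build other than the one used for quantification. Capitals mark matches, on either strand, to a full cAMP response element, to an E-box or, by name, to the CArG box bound by serum response factor.
Slc25a25 (chr3:36116582-36116831, minus strand): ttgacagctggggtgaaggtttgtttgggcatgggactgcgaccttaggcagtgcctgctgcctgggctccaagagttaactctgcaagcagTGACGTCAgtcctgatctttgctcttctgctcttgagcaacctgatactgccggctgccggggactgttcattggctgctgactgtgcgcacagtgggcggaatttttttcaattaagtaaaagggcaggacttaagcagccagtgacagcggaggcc
Slc25a23 (chr9:1985366-1985615, minus strand): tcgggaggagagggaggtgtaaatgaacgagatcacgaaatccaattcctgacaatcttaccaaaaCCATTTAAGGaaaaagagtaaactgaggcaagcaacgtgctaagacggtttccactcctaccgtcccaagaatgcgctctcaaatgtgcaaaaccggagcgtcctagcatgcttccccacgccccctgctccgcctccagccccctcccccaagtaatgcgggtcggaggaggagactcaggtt
Slc25a33 (chr5:165502974-165503223, minus strand): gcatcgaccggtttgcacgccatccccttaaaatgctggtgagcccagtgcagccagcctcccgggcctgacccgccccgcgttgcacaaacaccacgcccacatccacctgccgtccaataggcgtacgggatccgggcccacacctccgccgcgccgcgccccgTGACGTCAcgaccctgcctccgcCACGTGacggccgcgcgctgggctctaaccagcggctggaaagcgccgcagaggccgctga
Slc25a39 (chr10:87866974-87867223, minus strand): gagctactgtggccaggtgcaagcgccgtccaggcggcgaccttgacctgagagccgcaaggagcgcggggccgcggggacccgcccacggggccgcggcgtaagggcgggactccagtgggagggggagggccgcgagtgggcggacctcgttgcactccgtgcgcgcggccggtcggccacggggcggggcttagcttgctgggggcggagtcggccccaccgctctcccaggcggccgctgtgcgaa
The letters TGACGTCA of a full cAMP response element stood in the window of Slc25a25, higher in VSMCs, and in that of Slc25a33, higher in mcPCs. These were the only 2 of the 61 members that held it (3.28%, against 1.70% of 27457 rat promoters). The single CArG match among the 61 was in the window of Slc25a23 (1.64%, against 1.5% of all). The E-box letters CACGTG stood in the Slc25a33 window and in 6 of the 61 (9.84%, against 5.79% of all promoters). The Slc25a39 window held no match to these motifs, nor to the AGATAA of a GATA site, which was in 3 of the 61 windows (4.92%, against 10.05% of all). ETS letters, CCGGAAG, were in 13 of the 61 windows (21.3%, against 7.74% of all rat promoters searched in the same way). The NRF1 core GCGCATGC, searched because this factor is known to drive nuclear genes of mitochondria, was in 2 windows (3.28%, against 2.38%). A match is a description of the sequence, and no binding was measured.

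All 6 carriers of adenine nucleotides and phosphate had a ratio below 0 under each scaling tried, and the calcium-regulated ATP-Mg/phosphate carriers differed most. Of all genes, 49.3% were below 0 on normalized counts. Over the other scalings that share ran from 40.8% (counts without the erythrocyte list and globin rows) to 86.3% (TPM as deposited). Slc25a25 (SCaMC-2) had a mean of 271 TPM in VSMCs, the 6th highest of the members, and 10.1 TPM in mcPCs, the 27th. It was 7.61-fold higher in VSMCs on normalized counts (log2 ratio -2.93, counting interval -2.96 to -2.89), and 3.05% of all genes had a lower ratio. Its paralog Slc25a23 (SCaMC-3) had a TPM of 35.8 in VSMCs and of 1.92 in mcPCs, a 5.47-fold difference (log2 ratio -2.45, interval -2.58 to -2.32). The third paralog, Slc25a24 (SCaMC-1), was close to equal (6.86 and 1.73 TPM, log2 ratio -0.18). Within the cell types Slc25a25 was 39.5 times as abundant as Slc25a24 in VSMCs and 5.85 times in mcPCs, and this comparison does not depend on scaling between the samples.

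The bulk ATP and phosphate carriers differed by less. Slc25a4 (ANT1, the heart and muscle adenine nucleotide translocase) had a TPM of 506 in VSMCs and of 93.8 in mcPCs (log2 ratio -0.61, interval -0.63 to -0.59). Slc25a5 (ANT2) had 332 and 72.7 TPM (log2 ratio -0.37), and Slc25a3, the phosphate carrier, had 407 and 84.4 TPM (log2 ratio -0.46). In VSMCs Slc25a4 made up 60.4% of the TPM of both translocases, and in mcPCs 56.3%, so the balance of the paralogs moved by 1.18-fold. The median of the group was -0.53.

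The subunits of the calcium uniporter differed from each other in their ratios. Mcu, the pore, had a TPM of 27.0 in VSMCs and of 2.29 in mcPCs, a 3.38-fold difference on normalized counts (log2 ratio -1.76, interval -1.87 to -1.64). Mcur1, described as a regulator of the uniporter, had 13.9 and 1.70 TPM (log2 ratio -1.27, interval -1.45 to -1.09). The gatekeeper subunit Micu2 (20.0 and 5.84 TPM, log2 ratio 0.02) had an interval that held 0, and Micu3, a brain and muscle paralog, stood at -0.46. In VSMCs Mcu was 1.35 times as abundant as Micu2, and in mcPCs 0.392 times, a 3.45-fold shift of the pore relative to that subunit. Of the partner genes, Smdt1 (EMRE, which links pore and gatekeepers) had 322 and 85.6 TPM (log2 ratio -0.11), the sodium-calcium exchanger Slc8b1 -0.15, Letm1 -0.82, and Ccdc109b, an earlier symbol of the inhibitory pore subunit Mcub, 0.74.

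Transcripts of the pyruvate carrier and of the outer membrane channels were lower in mcPCs under each scaling tried. The share of all genes lower in mcPCs ran from 40.8% to 86.3% over these scalings. Mpc1 had a TPM of 115 in VSMCs and of 15.7 in mcPCs (log2 ratio -1.05, interval -1.12 to -0.99), an interval that reaches the 2-fold limit. Mpc2, its obligate partner, had 258 and 44.5 TPM (log2 ratio -0.71), although its effective length of 177 bases makes that TPM uncertain. The voltage-dependent anion channels had 151 and 27.8 TPM for Vdac1 (log2 ratio -0.62), 187 and 38.3 TPM for Vdac2 (-0.47), and 146 and 32.9 TPM for Vdac3 (-0.31). Their shares stayed close, since Vdac2 held 38.6% of VDAC TPM in VSMCs and 38.7% in mcPCs. Among genes that work with these channels, Hk2, the hexokinase that docks on mitochondria in muscle, differed much more, with 41.9 TPM in VSMCs and 1.31 TPM in mcPCs (log2 ratio -3.22, 9.34-fold), while Hk1 was at 0.18. Tspo (1.15) and Ppif (1.03) of the same list were at least 2-fold higher in mcPCs, and Bax was at 0.73.

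The carriers linked to haem, iron and glutathione were the role group with the highest median (1.17). On normalized counts 3 of its 5 members were at least 2-fold higher in mcPCs (60%, against 22.0% of all genes). Its median was -0.66 in TPM as deposited, and between 0.49 and 1.38 under the other scalings. Slc25a39, a carrier needed for mitochondrial glutathione uptake, had a TPM of 64.1 in VSMCs and of 385 in mcPCs, where it was the most abundant member. It was 21.8-fold higher in mcPCs on normalized counts (log2 ratio 4.45, interval 4.42 to 4.48), with 96.6% of all genes below it. It supplied 1.17% of the members' TPM in VSMCs and 24.7% in mcPCs. Its paralog Slc25a40 had a TPM of 6.30 in VSMCs and of 1.22 in mcPCs (log2 ratio -0.62), so that Slc25a39 was 10.2 times as abundant as Slc25a40 in VSMCs and 316 times in mcPCs.

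Slc25a37 (mitoferrin-1, the iron importer prominent in erythroid cells) had a TPM of 10.3 in VSMCs and of 7.78 in mcPCs, which is 2.69-fold higher in mcPCs on normalized counts (log2 ratio 1.43, interval 1.34 to 1.52) but lower there in TPM as deposited. Slc25a38, the glycine carrier that feeds haem synthesis, had 16.9 and 10.7 TPM (log2 ratio 1.17 on normalized counts, and also below 0 in TPM as deposited). Slc25a28 (mitoferrin-2, the form found outside erythroid cells) had 51.1 and 20.4 TPM (log2 ratio 0.47), and remained the more abundant mitoferrin with 83.3% of mitoferrin TPM in VSMCs and 72.4% in mcPCs. Erythrocyte and pericyte marker lists were also higher in mcPCs. The 17 erythrocyte genes above 0 had log2 ratios from 3.56 to 8.86, and the median over all 18 was 8.05. The pericyte list, in part genes reported from these same data, had a median of 6.17 over 9 genes. A leukocyte list, written after the values were seen, had a median of 9.41 over 8 genes and a summed TPM of 3.26 in VSMCs and 425 in mcPCs. The part of blood cells in the ratios of these carriers was not tested, and RNA of blood cells and RNA of mcPCs cannot be told apart in these means.

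**Figure D2:**
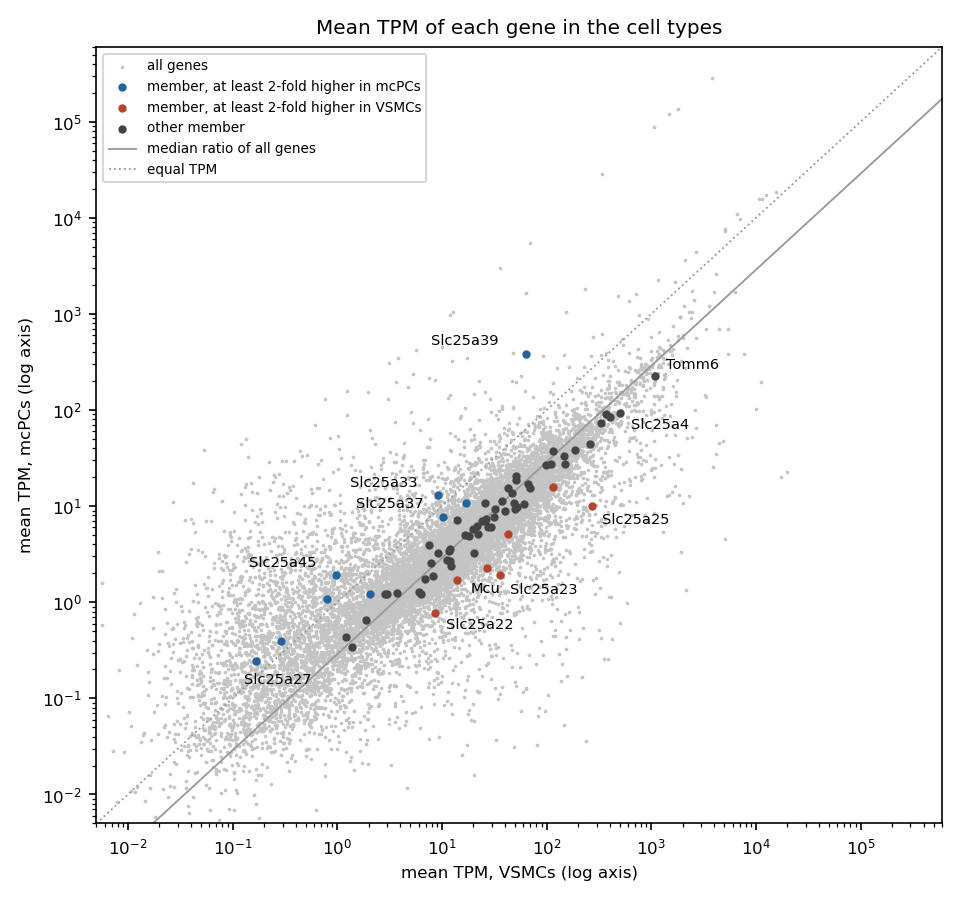
Mean TPM in VSMCs (x axis) against mean TPM in mcPCs (y axis), both log axes, for all 14607 genes (grey) and the 73 members, with the line of equal TPM dotted and the median ratio of all genes as a solid line. Most members follow the solid line, Slc25a39 lies above it at 385 TPM in mcPCs, and Slc25a25 lies below it at 271 TPM in VSMCs and 10.1 TPM in mcPCs.

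The 12 carriers of carboxylates, amino acids and acylcarnitine tended the other way from the adenine nucleotide and phosphate carriers on normalized counts. Of the 12, 9 were above 0 and 3 below (25%, against 49.3% of all genes), with a median of 0.35. With at least 100 reads per sample in each cell type that median was 0.20. It was below 0 in TPM as deposited (-1.50), in counts scaled to the same total (-0.25) and in TPM scaled without the erythrocyte list (-0.36). Slc25a22, the mitochondrial glutamate carrier GC1, was at the low end, with 8.62 TPM in VSMCs and 0.777 TPM in mcPCs (log2 ratio -1.72, interval -1.89 to -1.56). Slc25a1, the citrate carrier that exports acetyl units for lipid synthesis, had 13.9 and 7.25 TPM (log2 ratio 0.88). Slc25a20, the carnitine-acylcarnitine carrier, had 25.8 and 10.7 TPM (0.57). Slc25a10 for dicarboxylates stood at 0.37, and Slc25a11 for oxoglutarate at -0.16.

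The aspartate-glutamate carriers of the malate-aspartate shuttle changed in balance. Slc25a12 (aralar), the muscle and brain form, had a TPM of 51.6 in VSMCs and of 9.75 in mcPCs (log2 ratio -0.64). Slc25a13 (citrin), the form prominent in liver, had 0.795 and 1.09 TPM (log2 ratio 2.25, interval 1.94 to 2.57). Slc25a12 was 65.0 times as abundant as Slc25a13 in VSMCs and 8.93 times in mcPCs, so aralar was the main form in both. Slc25a13 rested on 40.7 reads per VSMC sample and 101 reads per mcPC sample, and its TPM in VSMCs was below the 0.8 that the authors required for their final gene set.

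Of the coenzyme and nucleotide carriers, Slc25a33 and Slc25a26 stood at opposite ends. Slc25a33, a pyrimidine nucleotide carrier, had a TPM of 9.10 in VSMCs and of 12.9 in mcPCs (log2 ratio 2.31, interval 2.22 to 2.40), while the other pyrimidine carrier, Slc25a36, had 31.6 and 7.73 TPM (-0.24). Slc25a33 held 22.3% of the TPM of this pair in VSMCs and 62.6% in mcPCs, so the more abundant paralog was a different one in each cell type. Slc25a26, which imports the methyl donor S-adenosylmethionine, had 42.9 and 5.07 TPM (log2 ratio -1.24, interval -1.34 to -1.15). The remaining 6 members of the group, among them the NAD carrier Slc25a51 (-0.40) and the coenzyme A carrier Slc25a42 (0.86), lay between -0.55 and 0.86.

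**Figure D3:**
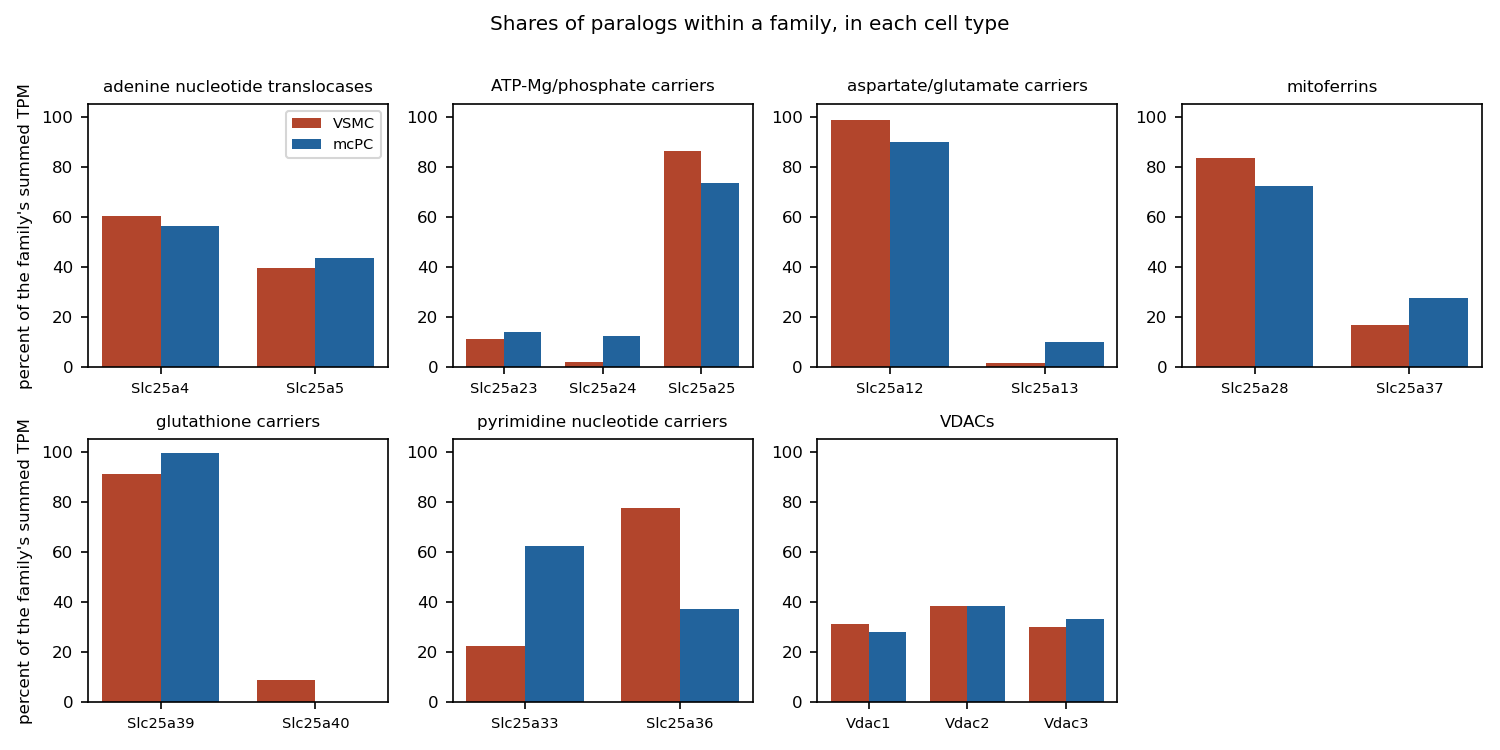
Share of each paralog in the summed TPM of its family (y axis, percent), in VSMCs (red) and mcPCs (blue), for 7 families of members. The shares are nearly the same for the VDACs, whereas Slc25a33 goes from 22.3% in VSMCs to 62.6% in mcPCs and Slc25a24 from 2.19% to 12.6%.

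Several of the members that were higher in mcPCs were scarce in both cell types. Slc25a21, the oxodicarboxylate carrier, had 0.289 and 0.398 TPM from 22.7 and 57.3 reads per sample (log2 ratio 2.32, interval 1.91 to 2.75). Slc25a27 (UCP4) had 0.167 and 0.242 TPM from 25.7 and 66.0 reads per sample (2.34, interval 1.95 to 2.74). Slc25a45, a carrier with no role given here, had 0.979 and 1.91 TPM (2.80), and the ornithine carrier Slc25a2 had 2.08 and 1.21 TPM (1.05, interval 0.79 to 1.30). Of the 7 members with under 100 reads per sample in a cell type, 5 were at least 2-fold higher in mcPCs and 0 at least 2-fold higher in VSMCs. Scarce genes as a whole leaned the same way. In the lowest class of all genes by mean normalized count per kilobase, 43.4% were at least 2-fold higher in mcPCs and 10.6% in VSMCs. That class is set by level and not by reads, so it is only an approximate background for these 7 members. Without the 7 members under 100 reads, 4 members were at least 2-fold higher in mcPCs (Slc25a33, Slc25a37, Slc25a38 and Slc25a39). The count on the VSMC side stayed at 7.

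Ratios below 0 were more frequent among abundant members than among scarce ones, as among all genes. In the top 25% of genes by mean normalized count per kilobase, 19 of 26 members had a ratio below 0 (73.1%, median -0.37), beside 60.9% of all genes of that class (median -0.21). In the bottom 25% of genes 1 of 7 members was below 0 (median 1.05), beside 29.9% of genes (median 0.72). The 10 members with the highest TPM in VSMCs held 67.8% of the members' TPM in VSMCs, and the 10 highest in mcPCs held 71.0%, with 8 members in both sets. By their ratios, 10 of the VSMC set and 8 of the mcPC set were below 0, counts that the choice by a level in the ratio itself favours in opposite directions. Slc25a25 and Vdac1 were in the VSMC set alone, Slc25a39 and Tomm20 in the mcPC set alone.

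The TOM complex and its partners were close to equal on normalized counts, where the median of the group was -0.30. That median was -0.88 in counts scaled to the same total, -0.97 in TPM scaled without the erythrocyte list and -2.11 in TPM as deposited. Tomm20, the presequence receptor, had 114 and 37.3 TPM (log2 ratio 0.20), the central receptor Tomm22 98.7 and 26.9 TPM (-0.06), and the pore Tomm40 49.2 and 10.8 TPM (-0.37). Tomm70, the receptor that binds carrier precursors with their chaperones, was the lowest of the group with 20.4 TPM in VSMCs and 3.24 TPM in mcPCs (-0.87, interval -0.97 to -0.78), and its TPM relative to Tomm20 was 0.179 in VSMCs and 0.0868 in mcPCs. Samm50, the pore of the sorting machinery, stood at -0.38. The small subunits Tomm6 and Tomm7 stood at -0.44 and -0.22. Tomm6 had the highest TPM of the members in VSMCs (1098, and 229 in mcPCs), but it rested on an effective length of 49.0 bases, against a median of 1946 over all genes, and on 2194 reads per VSMC sample.

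The inner membrane translocases also kept within 2-fold on normalized counts, although in TPM as deposited the medians were -1.79 (TIM23 group) and -1.99 (TIM22 group). For TIM23, the channel subunit Timm17a stood at -0.72 (60.9 and 10.6 TPM) and its paralog Timm17b at 0.11 (37.5 and 11.4 TPM), so their TPM ratio went from 1.62 in VSMCs to 0.927 in mcPCs. Timm17b is uncertain, since a row described as Tim17-B-like carries the same means, and how reads were assigned to these rows was not tested. The motor anchor Timm44 stood at -0.61, Timm21 at 0.06 and the receptor Timm50 at 0.38. No row bore the symbol Timm23, and a row described as Tim23-like, which the symbol rule does not take, had 80.8 and 22.2 TPM (log2 ratio -0.03). The 7 members of the TIM22 pathway lay between -0.49 (Timm8a1) and 0.36 (Timm13), with the pore Timm22 at 0.10 and the chaperone pair Timm9 and Timm10 at -0.05 and -0.19. Timm9 was 1.62 times as abundant as Timm10 in VSMCs and 1.79 times in mcPCs. Timmdc1, an assembly factor of complex I, stood at 0.03.

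The partner lists held genes that work with import, the channels, the cristae and the carriers, and regulators of biogenesis. Over the 69 of 73 listed partner genes with a row, 5 were at least 2-fold higher in mcPCs (7.25%, against 22.0% of all genes) and 3 at least 2-fold higher in VSMCs (4.35%, against 13.9%), with a median log2 ratio of -0.16 and a range from -3.22 (Hk2) to 8.06 (Ucp2). On normalized counts the import motor and its chaperones had 0 of 11 beyond 2-fold and a median of -0.53, from Hspa9 (mortalin, -0.73) to Dnlz (0.12), and the proteases that trim imported proteins 0 of 11 and a median of -0.24. In the MICOS complex that shapes cristae, Chchd6 was at least 2-fold higher in mcPCs (1.87) and Apoo at least 2-fold higher in VSMCs (-1.01). Sfxn4, of the sideroflexin transporters, stood at 1.24, and the outer membrane insertase Mtch2 at -0.31. Of the regulators of mitochondrial biogenesis, Ppargc1b was 2.86-fold higher in VSMCs (28.7 and 2.92 TPM, log2 ratio -1.52), while Nrf1 (-0.18) and Tfam (0.25) were near 0.

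Ucp2, an SLC25 carrier under another name, was far apart from every member, with 5.60 TPM in VSMCs and 418 TPM in mcPCs (log2 ratio 8.06, interval 7.97 to 8.15). Several marker lists held genes with high ratios. The erythrocyte list had a median of 8.05, the leukocyte list ran from 8.08 to 11.3, and the pericyte list reached 7.75 with a median of 6.17. The authors discarded the transcripts most enriched in mcPCs, mainly those of erythrocytes, and whether Ucp2 was among these was not checked. The part of these cell types in the Ucp2 value was not tested.

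**Figure D4:**
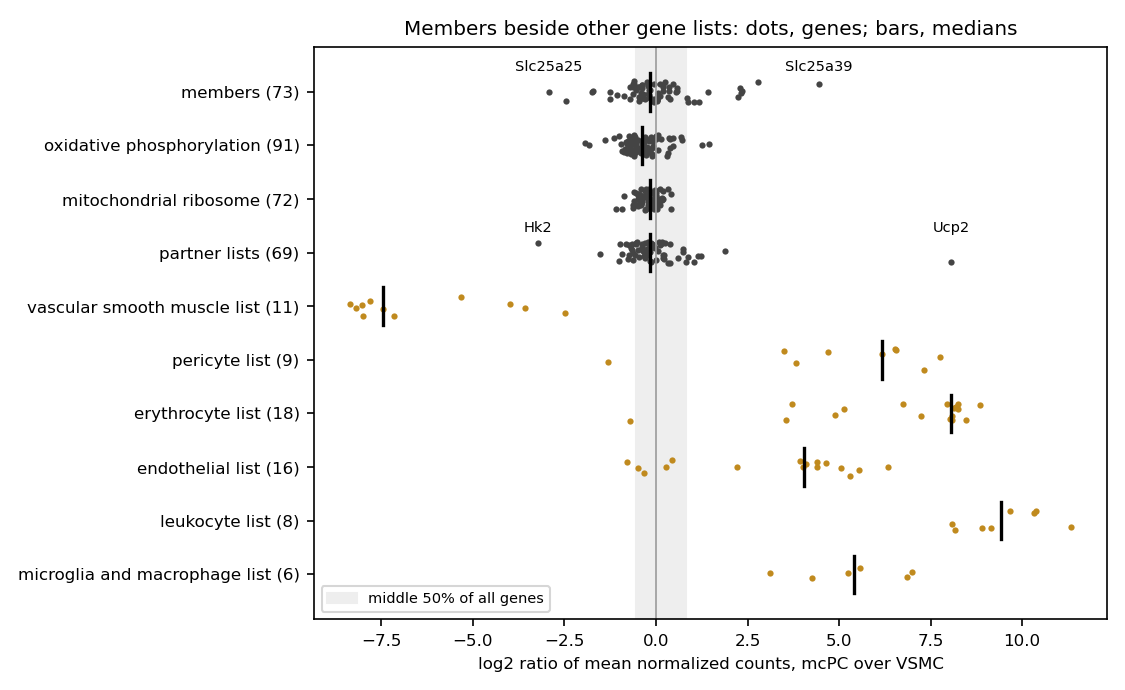
Log2 ratio of mean normalized counts, mcPC over VSMC (x axis), of the genes of each list (dots, with the number of genes in brackets) and their medians (bars), with the middle 50% of all genes shaded. The members center at -0.16 with Slc25a39 at 4.45, and Ucp2 of the partner lists is at 8.06. The median is 8.05 for the erythrocyte list and 6.17 for the pericyte list.

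A larger share of the members than of 2 other groups of mitochondrial genes was beyond 2-fold, though a smaller share than of all genes. It was 12.3% of members towards mcPCs and 9.59% towards VSMCs, against 22.0% and 13.9% of all genes. Of these 16 members 13 were Slc25a genes, and 0 of the 23 import genes was among them. The groups also differ in level, with a median TPM in VSMCs of 25.7 for members, 33.2 for ribosomal proteins and 198 for oxidative phosphorylation. Of 72 mitochondrial ribosomal protein genes 0 lay beyond 2-fold towards mcPCs and 1 was at least 2-fold higher in VSMCs (median -0.16), and of 91 nuclear genes of oxidative phosphorylation 2 and 5 (median -0.38). The middle 50% of the members ran from -0.46 to 0.33, beside -0.40 to -0.01 for the ribosomal proteins, -0.66 to -0.15 for oxidative phosphorylation and -0.54 to 0.82 for all genes. The difference between these groups has no test across samples. Summed over the members, TPM came to 5495 in VSMCs and 1561 in mcPCs, which is 0.555% and 0.473% of the TPM outside the erythrocyte list and globin rows. Without Slc25a39 these shares were 0.549% and 0.356%.

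How the cell types were scaled to each other set the sign of the smaller differences. The median over the members ranged from -1.98 in TPM as deposited to 0.048 in counts scaled without the erythrocyte list and globin rows. All 7 members at least 2-fold higher in VSMCs kept their call under the 7 other scalings or pseudocounts, except Mpc1 when counts were scaled without the erythrocyte list and globin rows. Only that scaling moved the median of all genes towards mcPCs, from 0.01 to 0.19. The others left it near its place or moved it towards VSMCs, by which calls on the VSMC side could hardly be lost. Of the 9 on the mcPC side, Slc25a2, Slc25a37 and Slc25a38 fell short of 2-fold when counts were scaled to the same total or TPM without the erythrocyte list, and in TPM as deposited they were lower in mcPCs and Slc25a39 alone kept its call.

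**Figure D5:**
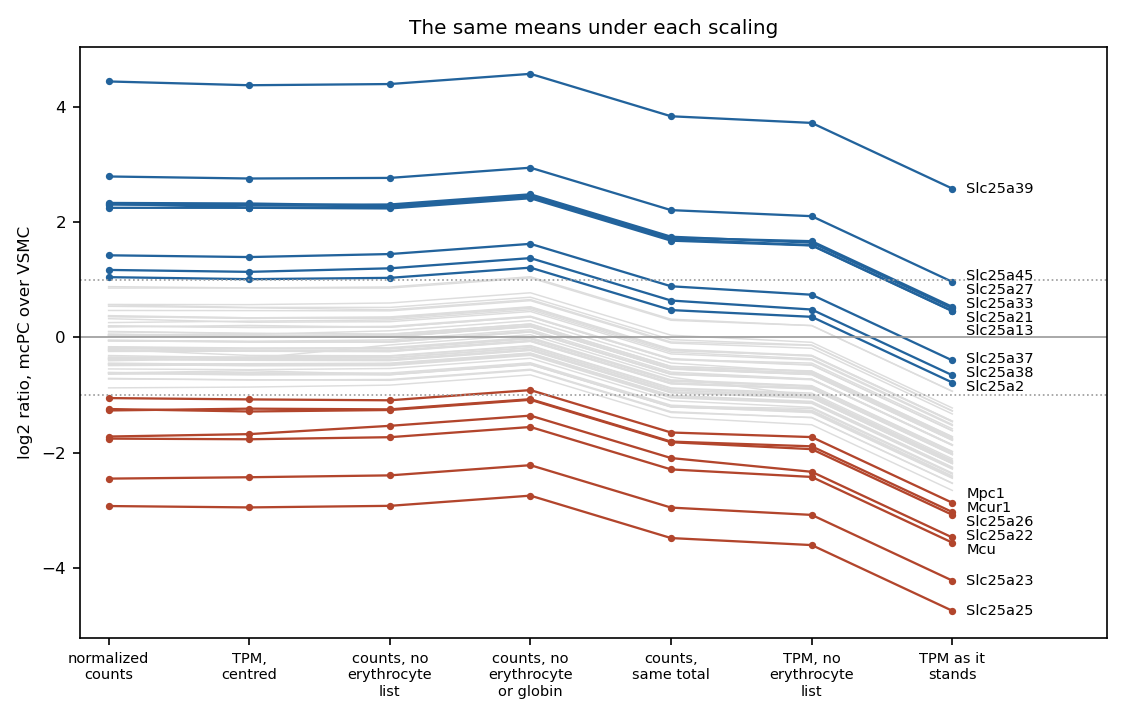
Log2 ratio, mcPC over VSMC (y axis), of the 73 members under 7 scalings of the same means (x axis), with the members at least 2-fold higher in mcPCs on normalized counts in blue, those at least 2-fold higher in VSMCs in red and the others in grey. The lines run nearly parallel, Slc25a39 stays above 1 and Slc25a25 below -1 in each, and Slc25a2, Slc25a37 and Slc25a38 end below 0 in TPM as it stands.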

How the data were processed

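PolyA+ RNA of 3 VSMC and 3 mcPC samples was sequenced, each library in 4 runs. The authors quantified reads with Salmon 0.8.0 on the cDNA set of Rnor_6.0, summed transcripts per gene with tximport, normalized with DESeq2 and left out genes without a read in any 1 of the samples. For their final gene set they also removed genes with a mean below 0.8 TPM in VSMCs, because of contaminating cells. In a further step they discarded the transcripts most enriched in mcPCs, which were mainly those of erythrocytes. Neither step was applied here, and Slc25a13, Slc25a21 and Slc25a27 fall below the TPM limit. The deposited TPM values are means per cell type. The deposited estimated counts are means per run, since 71.4% (VSMC) and 72.5% (mcPC) are within 0.02 of a multiple of 1 read over 12 runs, and were multiplied by 4 to give reads per sample, 62.0 M (1e6) and 48.0 M in all. The deposited normalized counts are signal values, counts divided by normalization factors. The authors' columns of log2 fold change, standard error and p-values were not used.

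Ratios of mean normalized counts were taken without a pseudocount. No test was run, since the table holds means and the authors' test columns were not used, and a limit of 2-fold served as the call. Counting intervals are exact (Clopper-Pearson, 95%) on summed reads, moved to the normalized scale, and the steps were tested on simulated data. Named genes are the members beyond 2-fold, the 10 with the highest TPM in each cell type, and preset members of each role. Members and lists were chosen with earlier results of these data known, and the leukocyte and dynamics lists after the values were seen. Of the listed symbols of the roles, 17 had no row and were not analysed here, and the values of 1 member are not reported here. Alternatives were other scalings, filters and fold limits. Computations used scipy 1.17.1 and pandas 2.3.3 in Python 3.11.15, with figures from matplotlib 3.10.9.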

Additional observations from a re-analysis of the deposited data

How the results depend on the processing

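On normalized counts 9 members were at least 2-fold higher in mcPCs, 7 at least 2-fold higher in VSMCs, and their median was -0.16. TPM as it stands gave 1, 62 and -1.98, and the log2 ratio of Slc25a2, Slc25a38 and Slc25a37 turned to -0.78, -0.66 and -0.40. Counts scaled to the same total gave 21 members higher in VSMCs and a median of -0.69, TPM scaled without the erythrocyte list 28 and -0.84, and counts scaled without the erythrocyte list and globin rows a median of 0.048. The cause of these changes was not tested. At least 100 reads per sample left 4 members higher in mcPCs, since fewer members remain. A limit of 1.5-fold gave 15 members higher in VSMCs and a limit of 4-fold gave 2. The summed TPM of the members, mcPC over VSMC, was -1.82 on the log2 scale, -0.68 without the erythrocyte list in the total, -0.23 without that list and the globin rows, and -1.64 for members with an effective length of at least 300 bases. Leaving out the globin rows and setting a minimum length were chosen after seeing the data. Centred TPM, counts scaled without the erythrocyte list, a pseudocount of 1 and a minimum of 0.8 TPM in VSMCs kept both counts within 1.5 times. With the minimum of 0.8 TPM the count towards mcPCs was 6 and that towards VSMCs 7. No paired analysis was possible because the table holds 1 mean per cell type, and for the same reason no replicate was left out in turn. The authors' standard errors were not used, so no spread over the 3 samples of a cell type is given, and 7 members rested on under 100 reads per sample.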

Other observations

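Genes of mitochondrial fusion, fission and mitophagy, a list written after the values of the members were seen, had 13 of 17 symbols in the table. Of these, 1 was at least 2-fold higher in mcPCs (7.69%, against 22.0% of all genes), 2 were at least 2-fold higher in VSMCs (15.4%, against 13.9%), and the median log2 ratio was -0.28. Mfn2, a mitofusin of the outer membrane, had a TPM of 79.7 in VSMCs and of 8.28 in mcPCs (log2 ratio -1.45, counting interval -1.49 to -1.41), while its paralog Mfn1 had 31.5 and 7.47 TPM (-0.30). Dnm1l, the fission GTPase Drp1, had 49.8 and 5.68 TPM (-1.32), whereas its outer membrane adaptors Fis1 (333 and 161 TPM, 0.76) and Mff (83.5 and 38.5 TPM, 0.76) were on the other side of 0. Bnip3l (NIX), a mitophagy receptor known from the clearance of mitochondria in maturing red cells, had a TPM of 37.4 in VSMCs and of 103 in mcPCs (log2 ratio 3.32, interval 3.30 to 3.35). The erythrocyte list had a median of 8.05 and the pericyte list one of 6.17. The part of either cell type in the Bnip3l value was not tested. Pink1 stood at -0.48 and Bnip3 at 0.29.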
